A study of Mus musculus with 8 samples.

Results

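The cytosolic ribosomal protein genes were followed in RNA-seq data of 8 cultures of Rex1GFPd2 mouse embryonic stem cells. Members were taken by name, as rows named Rpl or Rps with a number and at most a short suffix, together with Rplp0, Rplp1, Rplp2 and Rpsa. Rows named as pseudogenes (-ps) and Rpl10l were left out. This gave 85 of 38991 genes, of which 49 were named as large subunit and 36 as small subunit members. The cells came from the 129 strain background, carried a reporter at the Rex1 locus and were grown without feeders on gelatin in N2B27 medium. All cultures were expanded for 6 passages in 2i, which combines the GSK3 inhibitor CH (3 µM) with the MEK inhibitor PD (1 µM), and then for 5 passages in their own condition, up to passage 11. There were 2 cultures in each of 2i+LIF (CH, PD and the cytokine LIF), 2i (without LIF), LIF+PD (without CH) and CH+LIF (without PD). The comparisons with 2i+LIF therefore ask what differed when LIF, CH or PD was withdrawn, and all 3 share the same 2 control cultures. Every culture came from this 1 line, and the labels do not say how the replicates were separated, so p-values measure only the spread between these samples.

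Each ribosome is built from a small subunit, which reads the messenger RNA, and a large subunit, which joins the amino acids. Every subunit carries 1 copy of nearly every ribosomal protein, so the cell makes these proteins in matched amounts, and proteins left unassembled are degraded. Their messenger RNAs are among the most abundant of growing cells, and most begin with a 5′ terminal oligopyrimidine tract (TOP), a run of C and T bases starting with C at the first transcribed base, through which mTOR signalling controls their translation. Embryonic stem cells divide rapidly and must keep making ribosomes, although naïve cells are known for a modest rate of translation.

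The TOP tract is the sequence feature for which these genes are known. The 30 bases around the annotated start are shown for 4 members that have such a run there and for 3 paralogs that do not. Its absence at the annotated start is not particular to the paralogs, since most members with an entry, among them Rpl39 and Rpl22, also lacked it. The sequences are RefSeq promoter entries on GRCm38.p6, given 5′ to 3′ on the transcribed strand, with 10 bases before the start and 20 from it. Capitals mark the unbroken run of pyrimidines that begins with C at the annotated first base.
Rps6 (chr4:86857348-86857377, minus strand): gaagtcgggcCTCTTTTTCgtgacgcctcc
Rps18 (chr17:33955646-33955675, minus strand): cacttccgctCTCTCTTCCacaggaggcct
Rpl35 (chr2:39005112-39005141, minus strand): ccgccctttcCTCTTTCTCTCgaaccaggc
Rpl15 (chr14:18270967-18270996, minus strand): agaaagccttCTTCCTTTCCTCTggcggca
Rpl22l1 (chr3:28805498-28805527, plus strand): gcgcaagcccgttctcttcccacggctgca
Rpl39l (chr16:10170218-10170247, plus strand): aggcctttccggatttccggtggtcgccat
Rps27l (chr9:66946076-66946105, plus strand, 1 of 2 annotated starts): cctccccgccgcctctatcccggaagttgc
Of the 80 members that GENCODE M21 gives as coding genes of the same name, 60 had such an entry. A run of at least 5 pyrimidines beginning with C stood at an annotated start in 13 of these 60 (21.7%), compared with 813 of 27025 genes (3.01%) in the whole table. A run of at least 7 pyrimidines anywhere from 20 bases before to 40 bases from a start was present in 45 of the 60 members (75%) and in 29.0% of all genes. These counts read only the transcribed strand, and they depend on how exactly each start is annotated.

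Before the values are read, some limits of the files have to be stated. FPKM (sequenced fragments divided by transcript length and by library size) is a share of the sequenced RNA, so the total RNA per cell is not measured, and in such bulk samples fewer cells of a type and less RNA per cell cannot be told apart. The FPKM sums ran from 715575 to 875458, mitochondrial genes held 8.76% to 13.3% of the sum, and the relative depth estimated from weak genes ran from 0.499 in replicate 1 of 2i to 1.18. The deposited FPKM of 43 to 47 of the 85 members per culture lay above the upper bound deposited beside it, so absolute levels of these members are uncertain. For a few members the ratio of the FPKM to the middle of its bounds also differed between cultures, by up to 1.65 times for Rpl26, 1.62 times for Rps10 and Rpl35, and 1.54 times for Rpl6, so comparisons of these are uncertain too. The pluripotency markers Pou5f1, Sox2, Nanog, Zfp42, Esrrb, Klf4, Tfcp2l1 and Dppa3 all passed the filter, and their summed FPKM lay between 3408 and 3873 in 2i+LIF and between 2948 and 3520 elsewhere, a sum led by Pou5f1. Single markers moved further. By limma 4, 4 and 3 of the 8 fell in 2i, LIF+PD and CH+LIF, beside 8.86%, 10.4% and 13.3% of all genes. In LIF+PD 1 rose, Zfp42 (0.32, limma adjusted p = 0.038), beside 14.8% of all genes. Those that fell included Klf4 in 2i, from 203 and 196 to 47.7 and 50.6 FPKM. Tfcp2l1 fell in LIF+PD from 115 and 123 to 57.0 and 48.9 FPKM, and Dppa3 in CH+LIF from 66.0 and 47.9 to 2.37 and 2.30 FPKM. The 5 primed epiblast markers summed to 41.1 to 44.0 FPKM in 2i+LIF, led by Dnmt3b, and to 87.0 to 120 FPKM in the other conditions. By limma 2 of the 4 tested rose in each of these, beside 9.77%, 14.8% and 12.2% of all genes in 2i, LIF+PD and CH+LIF. Otx2 kept its level in CH+LIF, at 2.15 and 2.11 FPKM beside 2.44 and 1.80 in 2i+LIF, and Fgf5 reached at most 0.473 FPKM in any culture. The 3 neural markers summed to 1.26 to 1.32 FPKM in 2i+LIF and to as much as 24.0 FPKM in LIF+PD. The 6 fibroblast markers summed to 0.270 to 0.617 FPKM in 2i+LIF and at most 17.1 FPKM elsewhere, with Col3a1 and Lum at 0 in every culture. That maximum held 14.1 FPKM of Postn in replicate 2 of CH+LIF. Sums of the 5 trophectoderm markers lay between 17.4 and 30.9 FPKM, and those of the primitive endoderm markers between 5.56 and 24.0 FPKM. Single markers moved both ways within these sums. In LIF+PD Cdx2 fell from 10.2 and 7.91 to 0.0433 and 0.0960 FPKM, and Krt18 rose from 0.973 and 1.23 to 4.78 and 6.38 FPKM. Lama1 fell in 2i from 17.4 and 21.9 to 5.79 and 4.18 FPKM, and Dab2 rose in LIF+PD from 0.195 and 0.330 to 1.08 and 1.93 FPKM. What part these shifts in cell state have in the values of the ribosomal protein genes was not tested.

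Most members were among the strongest rows of every culture, but the level differed widely between genes. On the FPKM scale, which is per length, the mean over the 8 cultures had a median of 1444 among the 85 members. Rps26 stood highest with a mean of 5547, followed in the small subunit by Rps24 with 4574 and Rps12 with 4437, while the large subunit was led by Rpl13a with 4413, Rplp1 with 3662 and Rplp2 with 3147. On the middle of the deposited bounds the order was another, with Rps24 (4617) above Rps26 (2936) and Rplp2 (3153) above Rpl13a (2321), so the order of the highest members depends on which deposited value is read. Proteins that stand in equal number in the ribosome were thus represented by transcripts of unequal FPKM. In all, 82 members (48 large and 34 small) reached 1 FPKM in at least 2 cultures and were tested. The 3 others were Rpl3l, the muscle paralog of Rpl3, with 0.544 to 1.01 FPKM, Rps12l1 with at most 0.314 FPKM, and Rps12l2, listed at 0 in every culture. Both Rps12l1 and Rps12l2 are processed pseudogenes in GENCODE M21, as are Rps3a2 and Rps3a3. The reads of Rps3a2, Rps3a3 and Rps3a1 come from near-identical copies, so their split is uncertain.

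The row named Rpl24 does not measure Rpl24. It carries the Ensembl identifier and the position of Zbtb11 (chr16:55973883-56008913, mm10) and held 7.79 to 9.96 FPKM, whereas a row spelled RPL24, which the naming rule does not take, has the Rpl24 identifier and held 1024 to 1405 FPKM. The Rpl24 row is kept in the counts as the rule gives it, and it moved against the other members, with the lowest value in replicate 1 of 2i+LIF. The RPL24 row had 1405 and 1258 FPKM in 2i+LIF, 1164 and 1098 in 2i, 1025 and 1041 in LIF+PD, and 1048 and 1024 in CH+LIF. It fell in LIF+PD by 0.36 (adjusted p = 0.027) and in CH+LIF by 0.36 (adjusted p = 0.028) on the log2 scale, by limma with Benjamini-Hochberg adjustment over all 12927 genes tested, and did not pass in 2i (adjusted p = 0.12).

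Ribosomal protein transcripts held the largest share of the FPKM sum in 2i+LIF. The 85 members made up 18.7% and 17.6% of the sum in the 2 cultures of 2i+LIF, 16.8% and 16.1% in 2i, 15.3% and 15.7% in LIF+PD, and 15.2% and 15.9% in CH+LIF. The 2i+LIF cultures did not overlap with those of any other condition, and those of LIF+PD and CH+LIF overlapped with each other. The large subunit members held 9.52% ± 0.399 (SD, n = 2) in 2i+LIF, 8.58% ± 0.194 in 2i, 8.25% ± 0.144 in LIF+PD and 8.41% ± 0.215 in CH+LIF. The small subunit members held 8.62% ± 0.333 in 2i+LIF, 7.85% ± 0.274 in 2i, 7.25% ± 0.108 in LIF+PD and 7.13% ± 0.231 in CH+LIF. Both subunits were therefore lower outside 2i+LIF, and the ratio between them was not constant. The ratio of the large to the small subunit sum was 1.11 and 1.10 in 2i+LIF, 1.08 and 1.10 in 2i, 1.14 and 1.14 in LIF+PD, and 1.19 and 1.17 in CH+LIF. Both conditions that lack 1 inhibitor lay above both that contain CH and PD, without overlap. No test was made of these sums over the members.

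**Figure D1:**
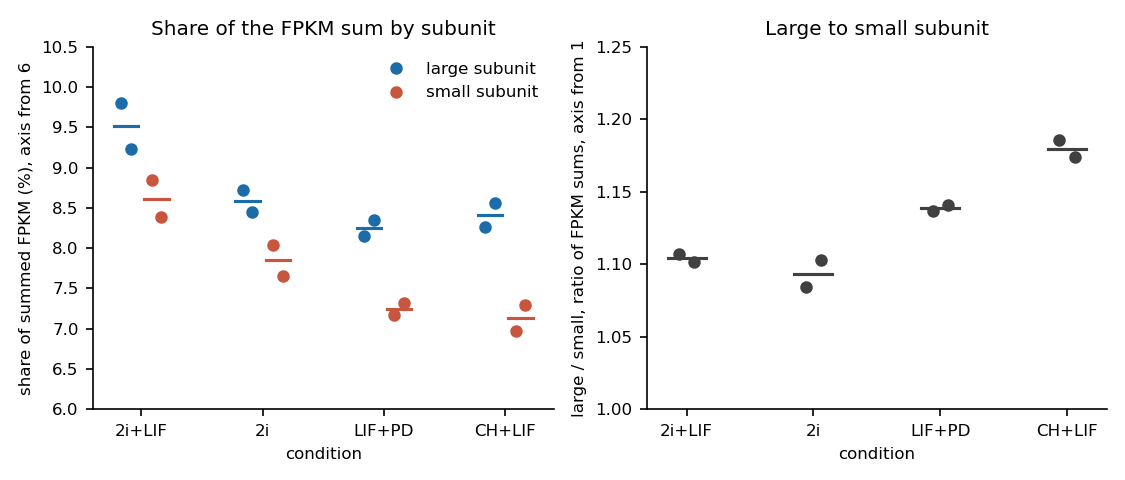
Left, share of the FPKM sum (%, vertical axis from 6) held by the large and small subunit members in each condition; right, ratio of the large to the small subunit FPKM sum (axis from 1). Points are cultures and lines are means of 2; the ratio reached 1.19 and 1.17 in CH+LIF and stayed at or below 1.11 in 2i+LIF and 2i.

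Most members had their highest level in 2i+LIF. The mean of 2i+LIF was the highest of the 4 conditions for 72 of the 82 tested members, and the lowest mean fell in CH+LIF for 46 members and in LIF+PD for 32. The shares of all genes in these places are not given. The mean FPKM sum was also highest in 2i+LIF (852278) and lowest in CH+LIF (740021). By the moderated F test of limma, 41 of 82 members (50%) differed between the conditions at a Benjamini-Hochberg adjusted p below 0.05, beside 46.8% of all 12927 genes tested, so that the share of members that differed was close to that of other genes. Of the small subunit members 22 of 34 passed and of the large 19 of 48, without a test of that difference. The count of 41 was lower without replicate 1 of 2i+LIF and without either culture of LIF+PD or CH+LIF. The share of all genes that passed in those fits is not given. Most differences of the members were small and in 1 direction. The heat map of 80 of the members shows this as rows that turn from white in 2i+LIF to blue elsewhere, with few exceptions.

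**Figure D2:**
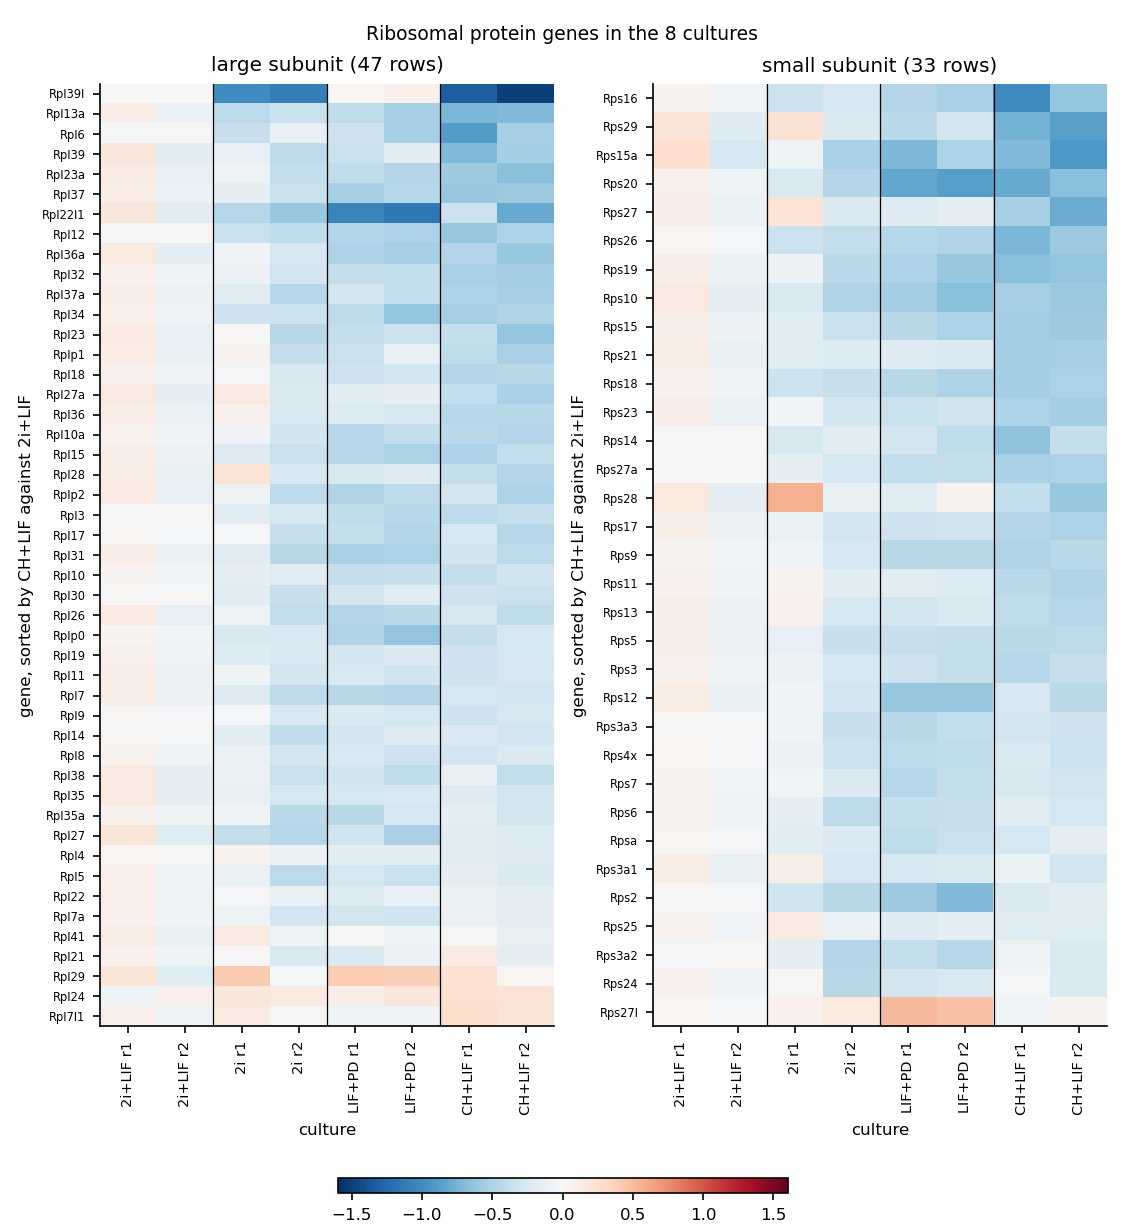
Each row is a tested member, 47 of the large (left) and 33 of the small subunit (right), sorted by the difference of CH+LIF from 2i+LIF, and each column is a culture (r1 and r2 are replicates). Colour gives log2(FPKM + 1) minus the mean of the 2 cultures of 2i+LIF; most rows are blue (lower) outside 2i+LIF, whereas Rps27l is red in LIF+PD and Rpl39l keeps its level there.

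Without LIF (2i against 2i+LIF) the members were lower by little. Their median log2 fold change was -0.21, a change of -13.8%, against a median of 0.04 over all genes tested, and 75 of 82 members lay below 0. In 44 of 82 members (53.7%) both cultures of 2i lay below both of 2i+LIF, which was the case for 27.0% of all genes. Only 5 members (6.10%) passed the test as lower and none as higher, beside 8.86% and 9.77% of all genes called lower and higher. They included Rpl39l, Rpl12, Rps2 and Rps18. Rpl12 (chr2:32961559-32964496, mm10), a protein at the base of the stalk that receives the translation factors, had 3230 and 3290 FPKM in 2i+LIF and 2537 and 2460 in 2i, without overlap. Its log2 fold change was -0.38 ± 0.09 (SE; limma, adjusted p = 0.030). The calls on Rpl12, Rps2 and Rps18 were lost when either culture of 2i+LIF or of 2i was left out, and that on Rpl39l was kept in each case. The median of the members was -0.096 without replicate 2 of 2i and -0.12 under quantile normalization. Fewer members were called lower in each fit without 1 culture of 2i+LIF or 2i, and the share of all genes called in those fits is not given. The count was also lower without either culture of LIF+PD, since all conditions share 1 estimate of the spread.

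Without CH (LIF+PD against 2i+LIF) the shift was larger. The median log2 fold change of the members was -0.37, a change of -22.4%, with 0.03 over all genes, and 78 of 82 lay below 0. Both cultures of LIF+PD lay below both of 2i+LIF for 73 of 82 members (89.0%), beside 29.8% of all genes. By limma 32 members (39.0%) fell and 1 rose, where 10.4% of all genes were called lower and 14.8% higher. The largest decreases included those of Rpl22l1, Rps20, Rps2 and Rps12. Rps20 (chr4:3831334-3835665), a protein of the small subunit head, had 2154 and 1920 FPKM in 2i+LIF, 1716 and 1467 in 2i, 1146 and 1103 in LIF+PD, and 1167 and 1275 in CH+LIF. All cultures outside 2i+LIF were thus lower than both of 2i+LIF, and the fall in LIF+PD was 0.85 ± 0.12 on the log2 scale (SE; limma, adjusted p = 0.0025). Rps2 (chr17:24718116-24721929), which lies near the entry of the messenger RNA, had 1744 and 1689 FPKM in 2i+LIF, 1374 and 1259 in 2i, 1144 and 1056 in LIF+PD, and 1463 and 1530 in CH+LIF. It fell by 0.64 ± 0.09 in LIF+PD (adjusted p = 0.0035) and its value in CH+LIF, -0.20, did not pass (adjusted p = 0.17). Rps12 fell by 0.61 (adjusted p = 0.020), from 5785 and 4917 to 3493 and 3488 FPKM. The count of 32 was lower in each fit without 1 culture of 2i+LIF or LIF+PD. Such a fit leaves 1 culture in a condition for every gene, and the share of all genes called in it is not given. The lower counts therefore do not tie the result to particular cultures. The median stayed between -0.43 and -0.28 in these and all other fits with a culture left out.

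Without PD (CH+LIF against 2i+LIF) the members were lower by about as much as without CH. The median log2 fold change was -0.42, a change of -25.5%, with 0.01 over all genes, and 79 of 82 members lay below 0. The cultures did not overlap and were lower for 73 of 82 members (89.0%), beside 33.2% of all genes. By limma 42 members (51.2%) fell and none rose, where 13.3% of all genes were called lower and 12.2% higher. The 5 largest decreases were those of Rpl39l, Rps16, Rps29, Rps15a and Rps20, of which 4 belong to the small subunit. Rps16 (chr7:28350652-28352696), whose tail touches the tRNA in the small subunit, had 2243 and 2129 FPKM in 2i+LIF, 1724 and 1820 in 2i, 1585 and 1526 in LIF+PD, and 1083 and 1408 in CH+LIF. The conditions followed one another without overlap in that order, and the fall in CH+LIF was 0.82 ± 0.13 (SE; limma, adjusted p = 0.0058). Rps29 (chr12:69157722-69159186), a small zinc-binding protein, had 1437 and 1087 FPKM in 2i+LIF, 1470 and 1061 in 2i, 930 and 1016 in LIF+PD, and 740 and 682 in CH+LIF. Its 2i+LIF and 2i cultures overlapped fully, while those of CH+LIF were the lowest of all, and the log2 fold change was -0.81 ± 0.19 (adjusted p = 0.020). Rps15a was lower by a similar amount (-0.81, adjusted p = 0.033), but its 2i+LIF cultures differed widely, at 2630 and 1823 FPKM. Rps26, a protein next to the exit of the messenger RNA, had 7224 and 6937 FPKM in 2i+LIF and 4252 and 4741 in CH+LIF (-0.66, adjusted p = 0.0071). The number of members called lower was smaller in each fit without 1 culture of 2i+LIF or CH+LIF, and the share of all genes called in those fits is not given. The median lay between -0.51 and -0.34.

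**Figure D3:**
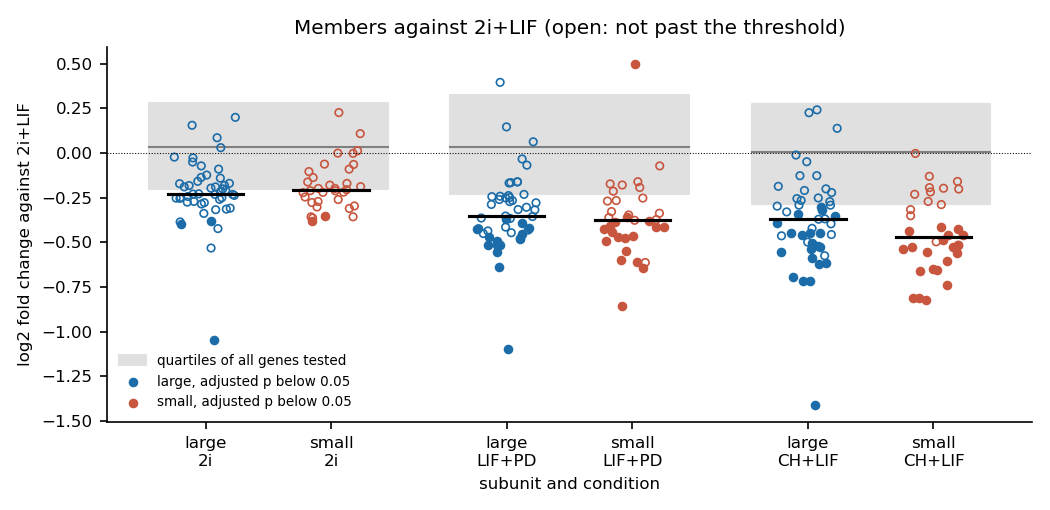
Log2 fold change against 2i+LIF (vertical axis) of the 48 large and 34 small subunit members in 2i, LIF+PD and CH+LIF. Filled points have an adjusted p below 0.05 (limma), black lines are medians of the members, grey bands the quartiles and grey lines the medians of all 12927 genes tested; in LIF+PD and CH+LIF the medians of both subunits lie below the grey band.

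The medians of the 2 subunits lay close together in 2i and LIF+PD and further apart in CH+LIF. The median log2 fold change was -0.23 for the large and -0.21 for the small subunit in 2i, -0.35 and -0.38 in LIF+PD, and -0.37 and -0.47 in CH+LIF. In CH+LIF 21 of 34 small and 21 of 48 large subunit members fell, and in LIF+PD 17 of 34 and 15 of 48. These are descriptions, with no test of the difference between the subunits. The range in CH+LIF was wider for the large subunit, from -1.41 for Rpl39l to 0.24 for Rpl7l1, than for the small, from -0.82 for Rps16 to -0.0031 for Rps27l. Rpl41, the smallest ribosomal protein, had 2361 and 1995 FPKM in 2i+LIF, 2399 and 2046 in 2i, 2181 and 2061 in LIF+PD, and 2204 and 1996 in CH+LIF. Its cultures overlapped in all conditions. Rpl4, Rpl21, Rpl22 and Rpl41 were chosen after their values were seen, and their log2 fold changes in the 3 comparisons lay between -0.20 and 0.03, none of them past the threshold. In the small subunit Rps24, whose protein is needed to process the small subunit rRNA, had 5302 and 4812 FPKM in 2i+LIF and 4934 and 4311 in CH+LIF, and did not pass in any comparison.

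Among the paralogs, Rpl39l, Rps27l and Rpl22l1 are described with the genes they are named after. Vertebrates carry a few close relatives of ribosomal proteins, some of which can replace the usual protein in the ribosome and are known from particular tissues. Rpl39l (chr16:10170226-10174911), the relative of Rpl39 best known from male germ cells, had 51.1 and 50.9 FPKM in 2i+LIF, 25.2 and 23.1 in 2i, 52.3 and 54.2 in LIF+PD, and 19.8 and 17.4 in CH+LIF. The values formed a high pair of conditions, 2i+LIF and LIF+PD, and a low pair, 2i and CH+LIF, with no overlap between them. Rpl39l fell in 2i by 1.05 ± 0.09 (SE; limma, adjusted p = 0.00063) and in CH+LIF by 1.41 ± 0.09 (adjusted p = 0.00036), while its log2 fold change in LIF+PD was 0.06 (adjusted p = 0.66). It was higher in LIF+PD than in 2i by 1.11 (adjusted p = 0.00034) and lower in CH+LIF than in LIF+PD (-1.47, adjusted p = 0.00011). The X-linked Rpl39 had 554 and 428 FPKM in 2i+LIF, 443 and 365 in 2i, 379 and 429 in LIF+PD, and 298 and 334 in CH+LIF, and passed only in CH+LIF (-0.62, adjusted p = 0.027). Rpl39 stood about an order of magnitude above Rpl39l, and its values did not form the same high and low pairs.

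Rps27l (chr9:66946086-66949516), a relative of Rps27 known as a target of p53, was the 1 member called higher against 2i+LIF. It had 311 and 298 FPKM in 2i+LIF, 319 and 338 in 2i, 439 and 422 in LIF+PD, and 295 and 313 in CH+LIF. The LIF+PD cultures were the highest, and those of 2i lay above those of 2i+LIF and CH+LIF by less, also without overlap. The log2 fold change of LIF+PD was 0.50 ± 0.08 (SE; limma, adjusted p = 0.0045), and LIF+PD was also higher than 2i (0.39, adjusted p = 0.011) and CH+LIF lower than LIF+PD (-0.50, adjusted p = 0.0035). Rps27 had 5233 and 4481 FPKM in 2i+LIF, 5651 and 4136 in 2i, 4180 and 4373 in LIF+PD, and 3358 and 2792 in CH+LIF, and passed only in CH+LIF (-0.66, adjusted p = 0.036), and its deposited FPKM was 3.81 to 4.70 times the middle of its bounds. Rpl22l1 (chr3:28805436-28807352), a relative of Rpl22 that Rpl22 is known to hold down, had 84.3 and 64.8 FPKM in 2i+LIF, 53.7 and 48.0 in 2i, 35.1 and 32.9 in LIF+PD, and 57.9 and 41.9 in CH+LIF. All 6 cultures outside 2i+LIF were lower than both of 2i+LIF, and those of LIF+PD were lowest. Rpl22l1 fell in LIF+PD by 1.10 ± 0.18 (adjusted p = 0.0052), and its log2 fold changes in 2i (-0.53, adjusted p = 0.081) and CH+LIF (-0.58, adjusted p = 0.053) did not pass. Rpl22 had 2229 and 2007 FPKM in 2i+LIF and between 1833 and 2072 elsewhere. Rpl7l1 had 89.3 and 80.1 FPKM in 2i+LIF, 80.6 and 80.5 in LIF+PD and 103 and 97.5 in CH+LIF, and passed only between CH+LIF and LIF+PD (0.31, adjusted p = 0.033).

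**Figure D4:**
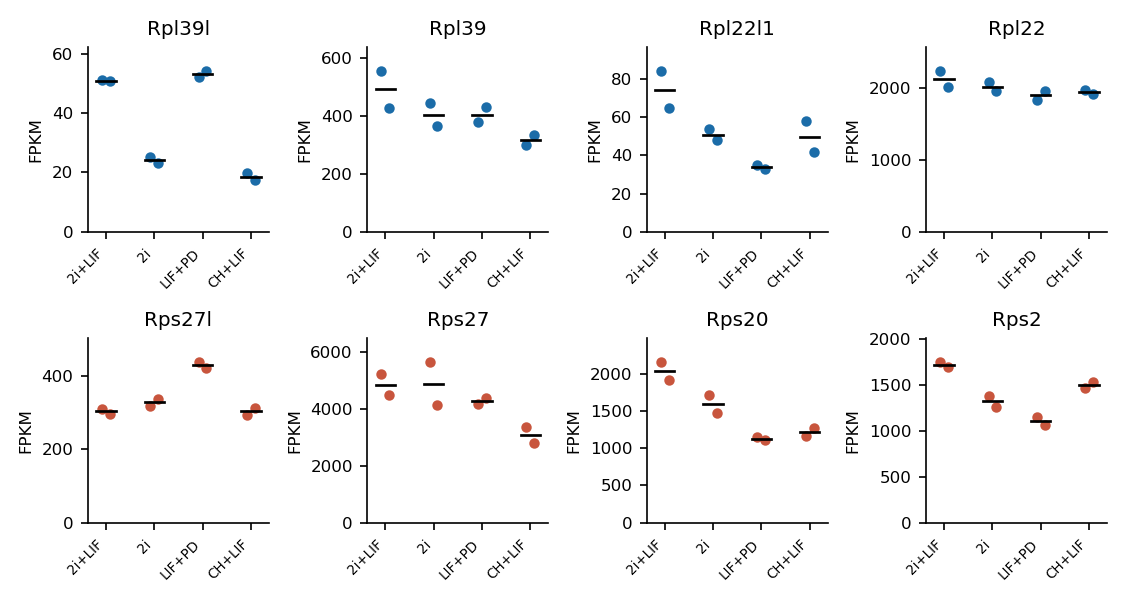
FPKM (vertical axes from 0, scaled per gene) by condition for the paralogs Rpl39l, Rpl22l1 and Rps27l beside Rpl39, Rpl22 and Rps27, and for Rps20 and Rps2. Points are cultures and lines are means of 2; Rpl39l lies between 50.9 and 54.2 in 2i+LIF and LIF+PD and at or below 25.2 in 2i and CH+LIF, and Rps27l is highest in LIF+PD.

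The directly tested differences among the 3 other conditions were few. Of 82 members, 2 were higher and 1 lower in LIF+PD than in 2i, beside 14.0% and 11.1% of all genes, none was higher and 7 were lower in CH+LIF than in 2i (10.6% and 13.3%), and 2 were higher and 3 lower in CH+LIF than in LIF+PD (12.6% and 17.8%). The members of the last comparison included Rpl39l and Rps27l, which were lower in CH+LIF, and Rps2 and Rpl7l1, which were higher. Rps2, with the values given above, was 0.44 ± 0.09 higher in CH+LIF than in LIF+PD on the log2 scale (SE; limma, adjusted p = 0.012). The members below 0 were 48 of 82 in this comparison and the median was -0.03, so that the group as a whole stood at nearly the same level without CH and without PD. Of the 7 members lower in CH+LIF than in 2i, 6 belonged to the small subunit.

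By role, each group had a negative median log2 fold change in all 3 comparisons, and the counts below stand beside 39.0% and 51.2% of all members called lower in LIF+PD and CH+LIF, and 10.4% and 13.3% of all genes. Of the 4 stalk proteins Rplp0, Rplp1, Rplp2 and Rpl12, 1 fell in 2i, 2 in LIF+PD and 2 in CH+LIF. Rplp0, the anchor of the stalk and a common reference gene in RT-qPCR, had 1283 and 1203 FPKM in 2i+LIF, 1037 and 1050 in 2i, 891 and 802 in LIF+PD, and 955 and 1034 in CH+LIF. It did not keep a constant level on this scale, falling in LIF+PD by 0.56 (limma, adjusted p = 0.0063) and in CH+LIF by 0.32 (adjusted p = 0.046). The call in CH+LIF lies close to the threshold. The FPKM sums were also lower there (764466 and 715575) than in 2i+LIF (875458 and 829098), so this call may depend on the scaling. Rpl5 and Rpl11, which bind the 5S rRNA and, when unassembled, Mdm2, had log2 fold changes between -0.32 and -0.18 and did not pass in any comparison. Of the 4 X-linked members Rpl10, Rpl36a, Rpl39 and Rps4x, 3 fell in LIF+PD and 3 in CH+LIF, and both calls on Rpl10 were lost with the middle of the deposited bounds. Of 19 members whose human counterparts are mutated in Diamond-Blackfan anaemia, a failure of red cell production, none passed in 2i, 6 fell in LIF+PD and 9 in CH+LIF. Rps19, the first gene tied to that disease, had 2393 and 2069 FPKM in 2i+LIF and 1401 and 1439 in CH+LIF (-0.65, adjusted p = 0.015).

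Members with and without a pyrimidine run at the annotated first base had similar medians. The median log2 fold change was -0.25 in 2i, -0.36 in LIF+PD and -0.42 in CH+LIF for 13 tested members with the run, and -0.21, -0.37 and -0.39 for 46 without it. Called lower were 1, 3 and 6 of the 13 with the run and 3, 21 and 22 of the 46 without it, and the difference was not tested. Since 45 of the 60 members with an entry had a longer run near a start, the split depends on the exact base annotated. It cannot separate genes with a TOP tract from genes without one. Among the genes shown above, Rps18 fell in all 3 comparisons, with 3565 and 3218 FPKM in 2i+LIF and between 2318 and 2680 elsewhere, Rpl15 fell in LIF+PD and CH+LIF, and Rpl35 and Rps6 passed in none.

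Replicates of 1 condition differed in a common direction. Replicate 1 was higher than replicate 2 for 77 of 82 members in 2i+LIF and for 76 in 2i, where about as many genes lay on each side over all genes tested (52.7% and 50.1%), and for 43 in LIF+PD and 50 in CH+LIF. The median difference was 0.15 in 2i+LIF and 0.22 in 2i on the log2 scale. The size of the group's shift between the 2 cultures of 2i was therefore comparable to the median difference of 2i from 2i+LIF, and larger than that between the cultures of LIF+PD (0.0022) or CH+LIF (0.04). Replicate 1 of 2i also had the lowest relative depth, and replicate 2 of 2i+LIF the largest mitochondrial share. Their part in the result was not tested.

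Genes that build the ribosome differed from its proteins in direction in CH+LIF. Of 108 tested ribosome biogenesis genes, which make rRNA or assemble the subunits, 43 rose and none fell in CH+LIF, with a median log2 fold change of 0.30, where the ribosomal protein genes had -0.42 and 12.2% and 13.3% of all genes were called higher and lower. Rrn3, which recruits RNA polymerase I, rose from 61.7 and 54.8 to 144 and 113 FPKM (1.12, limma adjusted p = 0.0031), and Heatr1, an early assembly factor, from 23.6 and 24.4 to 50.0 and 46.5 FPKM (0.98, adjusted p = 0.00073). In CH+LIF the number that rose was 22 without replicate 1 of 2i+LIF, 11 without its replicate 2 and 11 without replicate 1 of CH+LIF, and none fell in these fits. With every culture scaled to the same sum 87 rose and none fell. That scaling raises all genes outside 2i+LIF against 2i+LIF, where the mean FPKM sum was highest (852278, beside 740021 in CH+LIF). The share of all genes called under it is not given, so such counts do not single out a list. In LIF+PD 6 rose and 4 fell, beside 14.8% and 10.4% of all genes, and in 2i 2 rose and none fell, beside 9.77% and 8.86%. Scaled to the same sum, 25 were higher and 1 lower in LIF+PD and 7 higher in 2i. Polr1b and Polr1c, both subunits of RNA polymerase I, moved apart in LIF+PD, with log2 fold changes of 0.57 (adjusted p = 0.0031) and -0.46 (adjusted p = 0.0054).

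Of 46 translation factors, 13 rose and 4 fell in CH+LIF, 4 rose and 5 fell in LIF+PD, and 1 rose in 2i. Eif4g2 rose in CH+LIF from 854 and 805 to 1545 and 1258 FPKM (0.75, limma adjusted p = 0.0057), whereas Eef2, the translocating elongation factor, fell from 1507 and 1499 to 1089 and 1150 FPKM (-0.43, adjusted p = 0.019). The shares over all genes were 12.2% higher and 13.3% lower in CH+LIF and 14.8% and 10.4% in LIF+PD. With every culture scaled to the same sum 23 factors were called higher and none lower in CH+LIF, so the calls on the factors that fell depend on the scaling. This scaling also raises all other genes in CH+LIF, and the share of them called under it is not given. Of 75 tested mitochondrial ribosomal protein genes, 7 rose and 3 fell in CH+LIF, 4 rose and 3 fell in LIF+PD, and 3 rose and 2 fell in 2i, with medians of 0.10, -0.0013 and 0.04, and no share reached that of all genes called in the same direction. Without any 1 of the 4 cultures compared in CH+LIF, at most 7 translation factors and 4 mitochondrial ribosomal protein genes were called higher. With the scaling to the same sum the split among the mitochondrial genes was 31 higher and 1 lower in CH+LIF, 14 and 0 in LIF+PD, and 8 and 1 in 2i, with a median of 0.30 in CH+LIF. The same limit holds for these counts. Under every scaling tried the cytosolic members had a negative median and the biogenesis genes a positive one in CH+LIF. Of 8 tested snoRNA host genes, several of which have TOP starts like the members, Gas5 alone passed, falling from 150 and 146 to 97.5 and 83.5 FPKM in LIF+PD (-0.71, adjusted p = 0.0030) and to 123 and 110 FPKM in CH+LIF (-0.34, adjusted p = 0.043).

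Among the ribosomal proteins left out by name, Fau and Gnb2l1 were lower in the same conditions as most members. Fau, which encodes a fusion that yields a small subunit protein, had 871 and 777 FPKM in 2i+LIF, 745 and 697 in 2i, 653 and 659 in LIF+PD, and 619 and 601 in CH+LIF, and fell in LIF+PD (-0.33, limma adjusted p = 0.036) and CH+LIF (-0.43, adjusted p = 0.014). Gnb2l1 (Rack1), a scaffold on the small subunit, fell in LIF+PD (-0.47, adjusted p = 0.014) and CH+LIF (-0.36, adjusted p = 0.036). Rpl10l, the autosomal retrogene of the X-linked Rpl10 that is known from meiosis, had 139 and 131 FPKM in 2i+LIF, 75.1 and 75.1 in 2i, 105 and 107 in LIF+PD, and 66.8 and 48.6 in CH+LIF. It fell in 2i by 0.84 ± 0.14 (adjusted p = 0.0073) and in CH+LIF by 1.23 ± 0.14 (adjusted p = 0.0017). Rpl36al, a retrogene of Rpl36a, passed in no comparison. Rpl10 itself had log2 fold changes of -0.17, -0.37 and -0.36 in 2i, LIF+PD and CH+LIF.

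Likeness to the group was measured against the median pattern of the members over the 8 cultures, as Pearson's r of log2(FPKM + 1). Among members, 40 of 82 had an r of at least 0.9 and 6 lay below 0.5, namely Rpl24, Rps27l, Rpl7l1, Rpl29, Rpl21 and Rpl39l, of which Rpl29 and Rpl21 are named after their values were seen. The median pattern was built from these same members, so a high r is in part built in. The share of other genes with an r of at least 0.9 is not given, so the count does not measure how alike the members are. Among 6819 other genes with a mean of at least 10 FPKM, the 5 with the most similar pattern were Erlin2 (0.984), Fau (0.980), Pofut2 (0.976), RPL24 (0.974) and Gm13841 (0.971). Of these 5, Fau and RPL24 are ribosomal protein genes outside the naming rule. The 8 points share their libraries and the scaling of each culture, and r is given as a description.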

How the data were processed

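RNA-seq of 8 cultures was analysed from FPKM values that the authors deposited for every gene in every culture, between a lower and an upper limit. The alignment by the authors used tophat2 on mm10 (Ensembl 75), and the paper kept only uniquely mapped reads for its gene counts. Whether this also holds for the deposited FPKM is not stated. How they treat reads shared by a ribosomal protein gene and its processed pseudogenes is therefore unknown. The submitters' processing notes also name Cufflinks and Cuffdiff, without versions. Libraries were rRNA-depleted by the methods and made from polyA RNA by the labels. The number of reads is unknown, and relative depth was estimated from genes below 0.5 FPKM. Of 39013 entries per file, those sharing an identifier were summed, leaving 38991 genes, of which 37427 were found in GENCODE M21. Deposited starts were shifted to count from 1.

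Values were taken as log2(FPKM + 1), with a pseudocount of 1, which understates fold changes of weak genes. The genes that reached 1 FPKM in 2 or more cultures were tested with limma 3.58.1 (R 4.3.3), with a mean-variance trend, all 4 conditions in 1 fit (4 residual degrees of freedom), two-sided, with Benjamini-Hochberg adjustment over all 12927 genes and a threshold of 0.05. Summaries and figures were made in Python 3.11.15 with pandas 2.3.3, numpy 2.4.6 and matplotlib 3.10.9. The limma step was tested on simulated data. Named members are those of the stalk, the 5S rRNA particle, the paralogs, the X-linked and Diamond-Blackfan genes, per subunit the 3 with the highest and the 3 with the lowest mean FPKM, and per comparison the 5 that increased most and the 5 that decreased most past the threshold. At most the 2 largest changes each way were named from the lists of biogenesis genes, translation factors, mitochondrial ribosomal proteins and snoRNA host genes. Members, lists and comparisons were chosen with earlier results of these data known. The replicate numbers were not used to pair the cultures. Deviations of same-numbered cultures had correlations of -0.03 to 0.09 over all genes and -0.52 to 0.66 over the members. Such correlations leave out a shift common to all members, so they cannot tell whether same-numbered cultures shared a batch. Results that rest on 3 single genes are not reported here, and 2 of these genes are left out of the heat map.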

Additional observations from a re-analysis of the deposited data

How the results depend on the processing

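No median of the members and no named member that had passed its test changed sign under any alternative. With each culture left out in turn, the members called lower ranged from 1 to 4 in 2i, 4 to 38 in LIF+PD and 8 to 47 in CH+LIF, those called higher were 0, 1 and 0 throughout, the medians ranged from -0.30 to -0.096, -0.43 to -0.28 and -0.51 to -0.34, the members past the F test from 12 to 52, and a condition left with 1 culture was assumed to vary like the others. Fits without a culture hold fewer values for every gene, and the share of all genes called in them is not given. For the ratio of the large to the small subunit sum, leaving out 1 culture only gives the value of the other culture of that condition, as printed above. It is therefore no separate check of the ratio. Without a filter on low values 1, 16 and 20 members were lower in 2i, LIF+PD and CH+LIF and 14 passed the F test. Under quantile normalization these were 3, 17, 19 and 26, with medians of -0.12 in 2i, -0.14 in LIF+PD and -0.20 in CH+LIF. With a fit of the 2 compared conditions only, 1 member was lower in 2i and 26 in CH+LIF. Scaling to the same sum (TPM) moved the median of all genes in LIF+PD and CH+LIF to 0.15 and 0.18 and that of the members to -0.23 and -0.22, which relative to all genes is -0.38 and -0.40; 2 members were then lower in 2i, 2 higher in LIF+PD and 1 higher in CH+LIF. Scaling to the same sum of the other genes gave a median of -0.27 in CH+LIF, with 2 members higher in LIF+PD and 1 in CH+LIF, and median-of-ratios scaling gave 8 members lower in 2i. With the replicate number as a block, though the labels do not say that it pairs cultures, 9 members were lower in 2i and 2 higher in LIF+PD. The subunit ratio in 2i+LIF, 2i, LIF+PD and CH+LIF was 1.20, 1.19, 1.23 and 1.34 without the 3 highest members of each subunit, and 1.21, 1.22, 1.28 and 1.29 with the middle of the deposited bounds, an alternative chosen after seeing the data. The cause of these differences was not tested. Of 129 results for named members, 74 kept their side of the threshold under every alternative.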

Other observations

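The files also hold 221 rows of ribosomal protein pseudogenes (-ps), of which 108 were listed at 0 in every culture and 34 passed the filter. Their summed FPKM was 1085 to 1201 in 2i+LIF, 910 to 944 in 2i, 824 to 845 in LIF+PD and 778 to 821 in CH+LIF. As a share of the FPKM sum, LIF+PD (0.105% and 0.110%) and CH+LIF (0.102% and 0.115%) overlapped, as they did for the members. The medians of the 34 were -0.23, -0.42 and -0.33 in 2i, LIF+PD and CH+LIF. By limma with Benjamini-Hochberg adjustment, 3 were higher and 1 lower in 2i, 4 were lower in LIF+PD, and 1 was higher and 8 lower in CH+LIF. Over all genes tested 9.77% were called higher and 8.86% lower in 2i, 10.4% lower in LIF+PD, and 12.2% higher and 13.3% lower in CH+LIF. Rpl15-ps2, the strongest of them, had 359 and 306 FPKM in 2i+LIF, 265 and 283 in 2i, 246 and 245 in LIF+PD, and 245 and 238 in CH+LIF, close to Rpl15, which had 320 and 280, 260 and 234, 217 and 210, and 212 and 227 FPKM. How many of these reads were transcribed from the pseudogenes and how many from the coding genes cannot be told apart.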
